A study of Mus musculus with 30 samples.

Results

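Gene expression in MPP3 T2 cells from mice labelled KOiMOS was set against that in MPP3 T2 cells from mice labelled WTiMOS. Each group had 3 libraries, all from bone marrow of mice aged 3 months, and these 6 libraries were chosen by their labels from the 30 of the series. The 24421 genes listed for each library were filtered to 11955 with at least 1 TPM (transcript abundance scaled to a common total) in at least 3 of the 6 libraries, and all 11955 were tested. KOiMOS and WTiMOS stand in the genotype entries together with T1 or T2, and the stated aim concerns the intrinsic role of Bcl11a in MPP3 and the effects of its overexpression in wild-type cells. The labels do not say what T1 and T2 cells carry, which part of Bcl11a is altered in KOiMOS mice, the sex of the mice, whether mice were pooled, or whether replicates are separate animals. P-values therefore measure only how these libraries vary, and that variation may be technical. The 3-month MPP3 T1 libraries, again 3 labelled KOiMOS and 3 labelled WTiMOS, are used beside the T2 comparison. KOiMOS and WTiMOS libraries came in separate deposited tables, so genotype and table cannot be told apart in any difference below.

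MPP3 are multipotent progenitors of the bone marrow, sorted by flow cytometry and known for myeloid output. Bcl11a encodes a zinc finger transcription factor that recruits repressive chromatin complexes. It is needed for B lymphopoiesis and is best known for silencing embryonic and fetal globin genes in erythroid cells. Mast cells and basophils, which carry the high-affinity IgE receptor and store proteases and histamine in granules, arise from progenitors that use GATA factors, as do erythroid cells and megakaryocytes.

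Promoters of 4 mast cell genes are shown first because these genes were higher in KOiMOS than in WTiMOS T2 cells by more than in T1 cells. The 4 are the first of the mast cell and basophil genes by the p-value of that difference, among those with a promoter entry in RefSeq (GRCm38.p6). Each is the 250 bases before the annotated start, 5′ to 3′ on the gene's strand. Capitals mark the letters AGATAA or TGATAA on either strand, which are forms of the core that GATA factors bind. The forms ending in G, AGATAG and TGATAG, were not searched and occur unmarked in the windows of Hdc, Il1rl1 and Cd200r3. Cpa3 encodes mast cell carboxypeptidase, Hdc the enzyme that makes histamine, Il1rl1 the receptor of interleukin 33 and Cd200r3 a receptor of mast cells and basophils. For Il1rl1 the first of its annotated starts was used. The Hdc window precedes its RefSeq start but lies inside the GENCODE interval of Hdc, chr2:126593667-126619299. The bases before the GENCODE start of Hdc were not searched.
Cpa3, chr3:20242182-20242431, minus strand: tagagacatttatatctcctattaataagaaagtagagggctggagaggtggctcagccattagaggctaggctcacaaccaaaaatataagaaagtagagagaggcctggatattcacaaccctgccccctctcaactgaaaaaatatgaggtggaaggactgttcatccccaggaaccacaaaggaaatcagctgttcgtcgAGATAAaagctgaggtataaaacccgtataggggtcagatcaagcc
Hdc, chr2:126618679-126618928, minus strand: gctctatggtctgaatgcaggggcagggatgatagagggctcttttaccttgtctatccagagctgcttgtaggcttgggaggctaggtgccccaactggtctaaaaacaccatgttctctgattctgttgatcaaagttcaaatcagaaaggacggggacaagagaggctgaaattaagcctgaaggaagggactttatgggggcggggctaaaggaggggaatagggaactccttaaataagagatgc
Il1rl1, chr1:40429320-40429569, plus strand: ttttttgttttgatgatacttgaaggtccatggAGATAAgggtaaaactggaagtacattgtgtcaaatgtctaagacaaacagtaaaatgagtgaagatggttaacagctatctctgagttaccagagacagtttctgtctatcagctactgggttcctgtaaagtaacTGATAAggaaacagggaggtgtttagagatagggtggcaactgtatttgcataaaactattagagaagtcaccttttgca
Cd200r3, chr16:44943428-44943677, plus strand: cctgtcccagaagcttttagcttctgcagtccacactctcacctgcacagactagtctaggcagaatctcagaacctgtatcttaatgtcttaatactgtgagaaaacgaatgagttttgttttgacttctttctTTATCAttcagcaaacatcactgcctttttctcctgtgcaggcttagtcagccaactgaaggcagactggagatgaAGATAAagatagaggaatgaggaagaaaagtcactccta
The Cpa3 promoter held 1 match to the searched forms, those of Il1rl1 and Cd200r3 held 2 each, and that of Hdc held 0. Of the 10 mast cell genes chosen in this way that had a promoter entry, 5 held a match, and of all 18 tested mast cell and basophil genes with an entry 7 did (38.9%). The share was 9.39% of the 8976 tested genes with an entry, 9.74% of those called higher and 17.0% of all 27025 promoters. TGACCA, a motif bound by human BCL11A, was searched on both strands and overlaps neither GATA motif. It lay in 1 of the same 10 promoters and in 4 of the 18 (22.2%), against 9.73% of the tested genes, 11.03% of those called higher and 11.5% of all promoters. Among the 212 genes that were higher in T2 cells, not called in T1 cells and called higher in the difference of differences, 152 had an entry, and 17.1% of these held TGACCA and 15.1% a GATA match. A match describes letters in this window and is not a site.

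Bcl11a (chr11:24078056-24174123, plus strand, GRCm38) was read first. It had 69.8, 64.3 and 70.6 TPM in the 3 KOiMOS T2 libraries, against 76.3, 85.3 and 73.8 TPM in the 3 WTiMOS T2 libraries. The groups did not overlap, as for 63.7% of all tested genes (30.3% higher and 33.3% lower in KOiMOS), yet the log2 difference of -0.20 (SE 0.090) did not pass the test (limma adjusted p = 0.0927). It passed when the 12 T1 and T2 libraries were fitted together, with an adjusted p of 0.0481. Bcl11a also passed when trends on transcript length and GC content were removed, with a log2 difference of -0.45 and an adjusted p of 0.00409. That removal was added after the data were seen. In T1 cells Bcl11a averaged 70.3 TPM in KOiMOS and 45.2 TPM in WTiMOS. The T2 difference minus the T1 difference was -0.82 (SE 0.11, adjusted p = 0.000176). A TPM per gene cannot show the loss of an exon, so these values neither check nor contradict the genotype labels.

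The MPP3 label was read from its markers. Kit averaged 385 ± 28.6 TPM in KOiMOS and 156 ± 13.3 TPM in WTiMOS T2 cells (SD, n = 3 each), Ly6a 64.7 and 90.9, Cd48 217 and 306, and Cd34 1169 and 1383. Slamf1, low in MPP3, was at 1.92 TPM in KOiMOS and 1.56 TPM in WTiMOS. Flt3, also low in MPP3, was present at 68.9 TPM in KOiMOS and 146 TPM in WTiMOS. The libraries also differed as wholes: 11787 to 12008 genes reached 1 TPM in KOiMOS and 11576 to 11658 in WTiMOS. Ribosomal protein genes took 16.4% to 18.1% of the TPM in KOiMOS and 10.7% to 12.1% in WTiMOS. Libraries of KOiMOS correlated with each other at Pearson's r of 0.993 to 0.995 and those of WTiMOS at 0.976 to 0.978 across genes, and the median SD per gene was 0.0928 and 0.218 on the log2 scale. The depth of sequencing is unknown, because TPM do not keep it.

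KOiMOS and WTiMOS T2 cells differed widely. Of the 11955 genes tested, 6550 (54.8%) were called at an adjusted p of 0.05 or less, 3100 higher (25.9%) and 3450 lower (28.9%) in KOiMOS. A called change of at least 2-fold was found for 1257 higher genes (10.5%) and 756 lower genes (6.32%). The median log2 difference over all tested genes was -0.021. Median-ratio rescaling moved it to 0.050 and turned the split to 3511 higher and 3081 lower genes. Log2 differences are on log2(TPM + 1), which understates the change of low genes. In T1 cells 7344 genes (61.4%) were called, 35.6% of the tested genes higher and 25.8% lower in KOiMOS. The T1 and T2 comparisons share no library, but they do share the tables. Of the 3100 genes higher in T2 cells, 2470 were also higher in T1 cells, which is 79.7% of the T2 calls and 58.0% of the T1 calls. Of the 3450 lower genes, 2266 were also lower in T1 cells, which is 65.7% of the T2 calls and 73.4% of the T1 calls. A further 93 higher and 156 lower genes were called the opposite way in T1 cells. Across the 11955 genes the log2 differences in T2 and T1 cells correlated at Pearson's r of 0.747 and Spearman's rho of 0.740, a description over genes that are not independent.

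The T2 difference minus the T1 difference was called for 2581 genes (21.6%), 929 higher (7.77%) and 1652 lower (13.8%). This split depended on scaling. Its median over all genes was -0.14, and after median-ratio rescaling it was 0.0088, with 1402 higher and 917 lower genes. The lower count also fell to 1085 without KOiMOS T2 replicate 1 and to 1099 without KOiMOS T1 replicate 1. For 212 of the genes higher in T2 cells and 467 of the lower ones, the gene was not called in T1 cells and the difference of differences was called the same way.

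**Figure D1:**
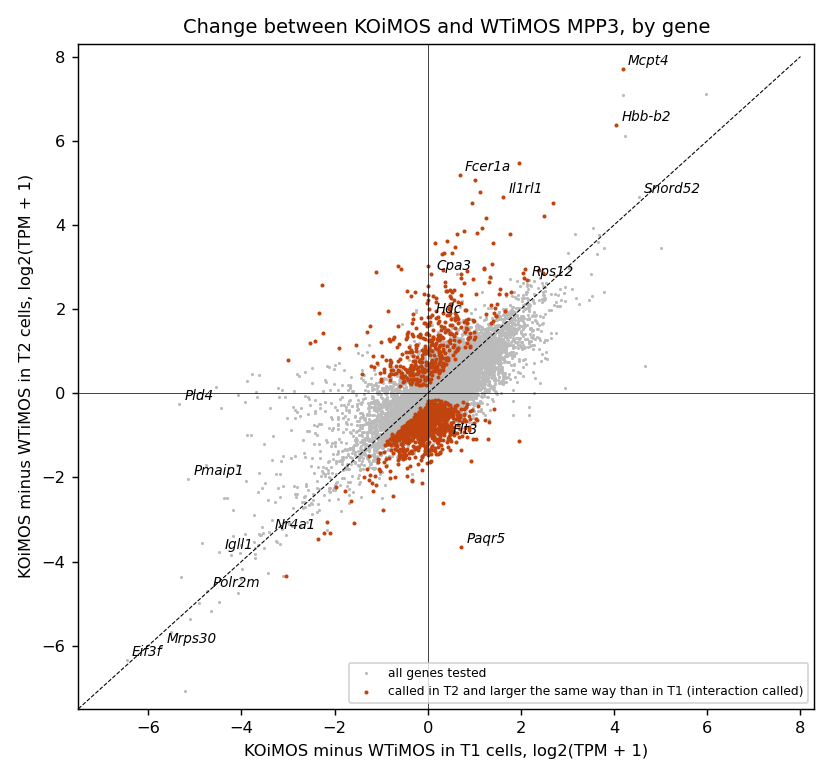
Log2 difference between KOiMOS and WTiMOS in T2 cells (vertical axis) and in T1 cells (horizontal axis), on log2(TPM + 1), 1 point per tested gene (11955), with named genes labelled. Points run broadly along the diagonal (Pearson's r of 0.747), Eif3f and Nr4a1 lie low on both axes, and Cpa3 and Paqr5 are displaced in T2 cells with T1 differences of 0.074 and 0.71.

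Mast cell and basophil genes had the largest median difference of the 32 lists. Of 22 tested members 17 rose and 2 fell in KOiMOS, against 25.9% higher and 28.9% lower of all genes, and the list's median log2 difference was 2.41, against -0.021. Rises ran from 0.80 for Hpgds, a prostaglandin D2 synthase, to 7.71 for Mcpt4, a connective tissue mast cell protease. In T1 cells 12 members rose and 0 fell, against 35.6% and 25.8% of all genes. The difference of differences was higher for 11 and lower for 3, against 7.77% and 13.8%. The members summed to 6475 to 6831 TPM in KOiMOS and 1710 to 1942 TPM in WTiMOS T2 libraries. In bulk libraries more cells of a type and more RNA per cell cannot be told apart.

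Cpa3 (chr3:20215620-20242181, minus strand) had 897, 1029 and 995 TPM in KOiMOS T2 libraries, against 125, 131 and 149 TPM in WTiMOS. Every KOiMOS library was above every WTiMOS library, as for 30.3% of all tested genes, and Cpa3 was named by its p-value in these libraries. The log2 difference was 2.84 (SE 0.081, limma adjusted p = 5.66e-08). In T1 cells Cpa3 averaged 247 TPM in KOiMOS and 235 TPM in WTiMOS, a log2 difference of 0.074 that was not called. The difference of differences was 2.77 (SE 0.10, adjusted p = 1.18e-09). Across the groups of the series, which came in separate tables, KOiMOS T2 was not at the top for Cpa3: WTiMOS MPP3 of 24 months averaged 2037 TPM in T1 and 383 TPM in T2 cells. Cpa3 belongs to the genes whose promoter is printed above, with its match 46 bases before the start.

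Hdc (chr2:126593667-126619299, minus strand) had 143, 163 and 161 TPM in KOiMOS and 41.4, 47.6 and 41.2 TPM in WTiMOS T2 libraries. The groups did not overlap (log2 difference 1.82, adjusted p = 1.45e-06), and in T1 cells the means were 50.2 TPM in KOiMOS and 48.5 TPM in WTiMOS. Fcer1g (chr1:171229572-171234365, minus strand), the gamma chain shared by Fc receptors including the IgE receptor, had 405, 371 and 389 TPM in KOiMOS and 93.5, 98.5 and 97.8 TPM in WTiMOS T2 libraries. Its log2 difference was 1.995 in T2 cells and 0.028 in T1 cells, and the difference of differences was 1.97 (adjusted p = 7.91e-09). Fcer1a, the alpha chain that binds IgE, had 95.4, 97.8 and 88.4 TPM in KOiMOS and 0, 2.94 and 3.44 TPM in WTiMOS T2 libraries (log2 difference 5.19, adjusted p = 3.42e-05). For these 3 genes the KOiMOS T2 libraries were above the WTiMOS T2 libraries, as for 30.3% of all tested genes. This was a condition of choice for Fcer1a, and Hdc and Fcer1g were named by p-values that used these libraries. The T1 groups were not called different for any of the 3. Across tables, the KOiMOS T2 mean of Hdc was above every library of the 6 other groups, whose highest was 7.64 TPM, and so was the WTiMOS T2 mean. Fcer1g averaged 463 TPM in T1 and Fcer1a 116 TPM in T2 cells of WTiMOS MPP3 of 24 months, both above the KOiMOS T2 means of 388 and 93.8 TPM. For Fcer1g the WTiMOS T2 libraries were below every library of the 6 other groups, whose lowest was 135 TPM.

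Il1rl1 had 33.1, 40.1 and 33.8 TPM in KOiMOS and 0.111, 0.383 and 0.925 TPM in WTiMOS T2 libraries, a log2 difference of 4.67 (adjusted p = 1.01e-06). Cd200r3 averaged 24.6 ± 1.59 TPM in KOiMOS and 1.04 ± 1.13 TPM in WTiMOS T2 cells (SD, n = 3 each), a log2 difference of 3.79. The KOiMOS and WTiMOS libraries did not overlap for either gene, which for Il1rl1 was a condition of its choice. Cd200r3 was named after its values were seen, and 30.3% of all tested genes were separated in this direction. Il1rl1 was higher in KOiMOS T1 cells too, at 3.37 TPM against 0.460 TPM in WTiMOS. Cyp11a1, a steroidogenic enzyme also found in mast cells, had 115, 118 and 116 TPM in KOiMOS and 3.14, 7.29 and 6.45 TPM in WTiMOS T2 libraries. Of the list, Ltc4s, which makes leukotriene C4, fell by 1.10 on the log2 scale, and Gata2, a factor of stem cells and mast cells, fell by 0.54. Mcpt1 was listed at 0 in all 6 T2 libraries.

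**Figure D2:**
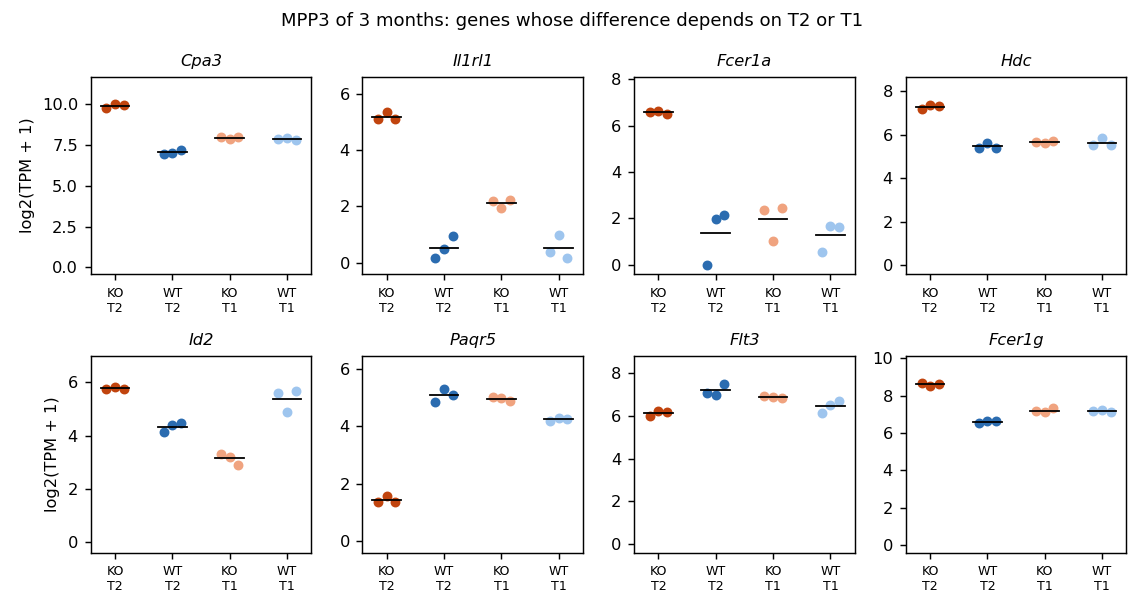
Expression as log2(TPM + 1) of 8 genes by library, 1 point per library and a bar at the mean of 3, in the order KOiMOS T2, WTiMOS T2, KOiMOS T1 and WTiMOS T1. Among the 12 libraries shown, the KOiMOS T2 points of Cpa3, Hdc and Fcer1g lie above all others, those of Paqr5 below all others, and Id2 is high in KOiMOS in T2 and low in KOiMOS in T1.

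Mast cell protease genes were among the largest rises, and here the WTiMOS libraries were uneven. Mcpt4 had 513, 504 and 457 TPM in KOiMOS and 0, 3.10 and 2.17 TPM in WTiMOS T2 libraries (log2 difference 7.71, adjusted p = 9.69e-06). Cma1, a chymase, had 1051, 1120.4 and 1053 TPM in KOiMOS and 0.474, 35.1 and 8.50 TPM in WTiMOS. Tpsb2, a tryptase, had 1780.2, 1913 and 1888 TPM in KOiMOS and 0, 59.5 and 38.6 TPM in WTiMOS. These genes were named for their size of rise among genes whose groups did not overlap, so the lack of overlap is no finding. WTiMOS replicate 1 was at or near 0 and replicates 2 and 3 were not. Tpsb2 was called with an adjusted p of 0.0299, and this was lost without KOiMOS replicate 1, 2 or 3, with adjusted p of 0.0954, 0.0850 and 0.0915. Tpsab1, a second tryptase, had 23.2, 36.9 and 25.01 TPM in KOiMOS and 0, 0.348 and 2.09 TPM in WTiMOS, and Tpsg1, a membrane-bound tryptase, had 20.9, 21.6 and 23.4 TPM in KOiMOS and was listed at 0 in WTiMOS. Tryptase genes are near copies of each other, so the split of reads among them is uncertain. Mrgprb2, a receptor of connective tissue mast cells, had 42.8, 50.01 and 40.1 TPM in KOiMOS and 0, 1.24 and 0.992 TPM in WTiMOS. Sox18, a transcription factor of endothelial cells, had 32.2, 34.8 and 30.9 TPM in KOiMOS and was listed at 0 in all 3 WTiMOS T2 libraries.

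**Figure D3:**
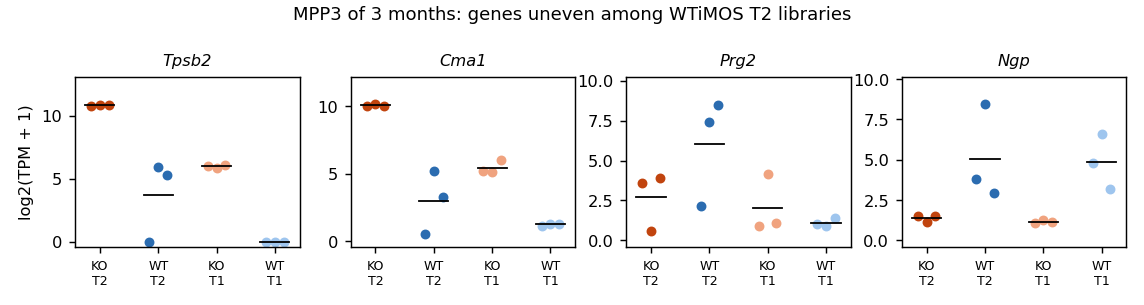
Expression as log2(TPM + 1) of Tpsb2, Cma1, Prg2 and Ngp by library, 1 point per library and a bar at the mean of 3, in the order KOiMOS T2, WTiMOS T2, KOiMOS T1 and WTiMOS T1. WTiMOS T2 replicate 1 lies below the other two for Tpsb2, Cma1 and Prg2, replicate 2 lies above the other two for Ngp, and the KOiMOS T2 libraries lie close together for Tpsb2, Cma1 and Ngp.

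More erythroid genes rose than fell, with adult beta globins at the top. Of 23 tested members 12 rose (52.2%) and 2 fell (8.70%), against 25.9% and 28.9% over all tested genes. The median log2 difference was 1.01. In T1 cells 11 rose and 0 fell, against 35.6% and 25.8% over all tested genes. Leaving out any 1 of the 6 T2 libraries except WTiMOS replicate 2 left 1 falling member. Hbb-b2 had 1246, 1213 and 1279 TPM in KOiMOS and 14.7, 16.7 and 11.04 TPM in WTiMOS T2 libraries, a log2 difference of 6.38 (limma adjusted p = 2.07e-08). Hbb-bt had 125, 105 and 128 TPM in KOiMOS and 5.06, 2.11 and 6.56 TPM in WTiMOS. Both were higher in KOiMOS T1 cells as well, and their T2 differences were larger by 2.33 and 1.83 on the log2 scale. The call for Hbb-bt (difference of differences) was lost without KOiMOS T2 replicate 1, 2 or 3, WTiMOS T2 replicate 1 or 2, KOiMOS T1 replicate 1 or 2, or WTiMOS T1 replicate 1, 2 or 3 (adjusted p of 0.0617 to 0.111). Adult beta globin genes are near copies, so how reads were split among Hbb-b1, Hbb-b2, Hbb-bs and Hbb-bt is uncertain. Hbb-b1 and Hbb-b2 had no GENCODE entry. The list counts each symbol as a member, and whether all stand for separate genes was not tested. Tfrc, the transferrin receptor, had 20.8, 24.4 and 20.7 TPM in KOiMOS and 5.72, 6.81 and 5.49 TPM in WTiMOS (log2 difference 1.72). Icam4 fell by 0.55 and Nfe2, a leucine zipper factor of erythroid cells and megakaryocytes, fell by 0.50, with 562, 593 and 582 TPM in KOiMOS and 782, 818 and 863 TPM in WTiMOS. The embryonic globins Hbb-y and Hbb-bh1 stayed under 1 TPM in every T2 library and were not tested, as were Slc4a1 and Ank1, while Alas2 reached at most 1.55 TPM. The list summed to 4858 to 5112 TPM in KOiMOS and 2530 to 2838 TPM in WTiMOS T2 libraries, and the part of erythroid cells or their RNA in the result was not tested.

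Genes with the largest falls were low in KOiMOS in both cell types. Eif3f (chr7:108934417-108942951, plus strand), a subunit of translation initiation factor 3, had 7.29, 12.3 and 6.99 TPM in KOiMOS and 746, 787 and 799.5 TPM in WTiMOS T2 libraries, a log2 difference of -6.34 (SE 0.18, adjusted p = 5.02e-08). In T1 cells it averaged 8.92 TPM in KOiMOS and 876 TPM in WTiMOS. The KOiMOS libraries of Eif3f were below every library of the 6 other groups of the series, whose lowest was 144 TPM, and the WTiMOS libraries were above every one of them, whose highest was 363 TPM. Mrps30, a mitochondrial ribosomal protein gene, had 1.17, 1.73 and 1.39 TPM in KOiMOS and 156, 147 and 167 TPM in WTiMOS. Polr2m, an RNA polymerase II subunit gene, had 15.2, 16.6 and 18.96 TPM in KOiMOS and 454, 476 and 458 TPM in WTiMOS. The other 12 of the 15 largest falls were Rrs1, Tysnd1, Zfp771, Peli1, Lipt2, Bloc1s4, Scand1, Inafm1, Nkx2-3, Micu2, Marcksl1 and Cry1. All 15 were lower in T1 cells too, as were 612 of the 756 genes that fell 2-fold or more. The T2 log2 falls of the 15 were 3.84 to 6.34. In the difference of differences 1 of them, Nkx2-3, a homeobox gene, was also called, against 26.3% of the 3450 genes called lower in T2 cells. For 12 of the 15 the KOiMOS libraries were below all libraries of the 6 other groups, against 15.7% of all tested genes, and for 12 the WTiMOS libraries were above them, against 39.3%. Among all 756 genes that fell 2-fold or more these shares were 40.5% and 46.3%, and the 15 were chosen for the size of their falls. Of the 15 largest rises, 14 were higher in T1 cells too, as were 1035 of the 1257 genes that rose 2-fold or more. In the difference of differences 11 of the 15 were called higher, against 14.3% of the 3100 genes called higher in T2 cells. The 15 were chosen for the size of their T2 rises, which also favours a higher difference of differences. For 13 of the 15 the KOiMOS libraries were above all libraries of the 6 other groups. This last was so for 46.5% of all tested genes, for 69.6% of the 1257 that rose 2-fold or more and for 14 of the 22 mast cell and basophil genes, and such levels are set across tables made separately.

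**Figure D4:**
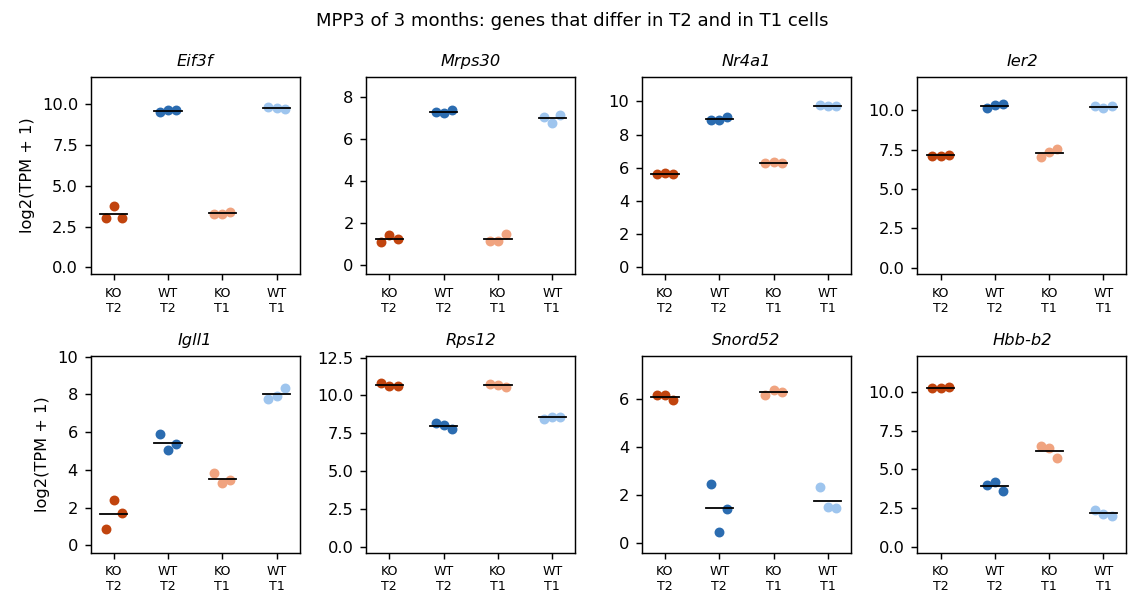
Expression as log2(TPM + 1) of 8 genes by library, 1 point per library and a bar at the mean of 3, in the order KOiMOS T2, WTiMOS T2, KOiMOS T1 and WTiMOS T1. Eif3f, Mrps30, Nr4a1, Ier2 and Igll1 are lower, and Rps12, Snord52 and Hbb-b2 higher, in KOiMOS in both T2 and T1 cells.

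Immediate early genes, induced within minutes by growth factors and by handling of cells, were lower in KOiMOS. Of 19 tested members 16 fell (84.2%) and 0 rose in T2 cells, against 28.9% and 25.9% over all tested genes (median log2 difference -1.42). In T1 cells 17 fell (median -1.47), against 25.8% over all tested genes. Nr4a1, a nuclear receptor, had 48.2, 50.4 and 48.03 TPM in KOiMOS and 476, 478 and 527 TPM in WTiMOS T2 libraries, a log2 difference of -3.31 (SE 0.070, adjusted p = 2.11e-08). Ier2 had 137, 138 and 144 TPM in KOiMOS and 1132, 1278 and 1342 TPM in WTiMOS. Dusp1, a phosphatase of MAP kinases, had 259, 291 and 248 TPM in KOiMOS and 1697, 1769 and 1855 TPM in WTiMOS, and Junb, an AP-1 subunit, had 232, 225 and 215 TPM in KOiMOS and 1107, 1039 and 1022 TPM in WTiMOS. No library of 1 group reached the other for any of these 4 genes, as for 63.7% of all tested genes. The 4 were named by their p-values in the same libraries, so their lack of overlap is no finding. The list summed to 2491 to 2628 TPM in KOiMOS and 8703 to 9504 TPM in WTiMOS T2 libraries. This list can also move with the handling of cells before lysis, whose part was not tested.

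Most B cell genes were lower in KOiMOS T2 cells. Of 10 tested B cell genes 9 fell (90.0%) and 0 rose (median -2.15), against 28.9% and 25.9% over all tested genes. The list summed to 65.0 to 79.4 TPM in KOiMOS and 222 to 291 TPM in WTiMOS libraries. Igll1, a surrogate light chain of the pre-B cell receptor, had 0.821, 4.22 and 2.29 TPM in KOiMOS and 58.9, 32.1 and 39.9 TPM in WTiMOS, a log2 difference of -3.78 (adjusted p = 4.34e-05). Vpreb1, its partner, had 2.26, 4.33 and 3.28 TPM in KOiMOS and 35.4, 20.5 and 29.2 TPM in WTiMOS, and Blnk, an adaptor of the B cell receptor, had 1.34, 1.88 and 1.60 TPM in KOiMOS and 12.8, 8.09 and 9.63 TPM in WTiMOS. In T1 cells the same 3 genes averaged 10.8, 10.4 and 2.22 TPM in KOiMOS and 261, 207 and 47.6 TPM in WTiMOS. The B cell list summed to 113 to 129 TPM in KOiMOS T1 and 940 to 1218 TPM in WTiMOS T1 libraries. Of the untested B cell markers, Pax5 was listed at 0 in all KOiMOS T2 libraries and reached at most 1.09 TPM in WTiMOS, and Ms4a1 was listed at 0 in all 6 T2 libraries.

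Of 14 tested lymphoid priming genes 7 fell and 4 rose (median -0.53). Of 11 T, NK and innate lymphoid genes 7 fell and 1 rose (median -0.94). Over all tested genes 28.9% fell and 25.9% rose, and the 4 rises among lymphoid priming genes were near that share. Dntt, terminal transferase, had 10.2, 11.8 and 11.8 TPM in KOiMOS and 53.4, 36.97 and 44.6 TPM in WTiMOS T2 libraries (log2 difference -1.89). Lck, a kinase of T cell receptor signalling, had 14.9, 14.5 and 16.3 TPM in KOiMOS and 43.01, 42.5 and 47.1 TPM in WTiMOS, and Lef1, a Wnt pathway factor, had 0, 0.302 and 0.175 TPM in KOiMOS and 6.60, 3.81 and 3.45 TPM in WTiMOS. No KOiMOS library reached a WTiMOS library for any of these 3 genes, and 33.3% of all tested genes were separated in this direction. The 3 were named by their p-values in the same libraries, so their lack of overlap is no finding. Without WTiMOS T2 replicate 3, 2 members of the second list rose. Zbtb16, a factor of innate lymphoid cells, was the member that rose, at 9.30, 10.4 and 9.49 TPM in KOiMOS and 2.55, 1.32 and 2.50 TPM in WTiMOS. With genes under 5 TPM filtered out, 5 members of the T, NK and innate lymphoid list were tested and 3 of them fell. The T cell receptor genes Cd3e, Cd3g and Cd3d were under 1 TPM in all 6 T2 libraries and were not tested. Gzma, a granzyme, was not tested either, listed at 0 in KOiMOS and reaching at most 6.83 TPM in WTiMOS. The part of lymphoid cells in these differences was not tested.

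Of 9 tested MHC class II genes 5 fell (55.6%) and 1, H2-Eb1, rose (11.1%), against 28.9% and 25.9% over all tested genes (median -0.64). H2-DMa, a subunit of the peptide-loading chaperone, had 149, 141 and 147 TPM in KOiMOS and 329, 304 and 332 TPM in WTiMOS T2 libraries (log2 difference -1.14, adjusted p = 2.29e-06). H2-Ab1 had 29.9, 37.95 and 40.4 TPM in KOiMOS and 81.8, 80.3 and 92.7 TPM in WTiMOS. H2-DMb1 fell by 1.51 and H2-DMb2 by 1.21 on the log2 scale. Ciita, the master regulator of class II genes, was not tested and reached at most 1.08 TPM.

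Most ribosomal protein genes rose in KOiMOS. Of 80 tested members 68 rose (85.0%) and 5 fell (6.25%), against 25.9% and 28.9% over all tested genes (median log2 difference 0.93). In T1 cells 67 rose and 4 fell, against 35.6% and 25.8% over all tested genes. Rps12 had 1829, 1589 and 1557 TPM in KOiMOS and 284, 262 and 219.5 TPM in WTiMOS T2 libraries, a log2 difference of 2.70 (adjusted p = 2.39e-07). Rpl7a had 2168, 2085 and 2043 TPM in KOiMOS and 654, 629 and 625 TPM in WTiMOS. Rpl5 had 1897, 1775 and 1804 TPM in KOiMOS and 605, 619.5 and 545 TPM in WTiMOS. Their groups did not overlap, as for 63.7% of all tested genes, and these genes were named by their p-values in the same libraries. The largest rise was Rps21 at 2.75 on the log2 scale. Rpl35 fell by 1.35, and Rps19, Rplp0, Rps6 and Rpl7l1 also fell. Ribosomal protein genes have many processed copies in the genome, so shared reads could change single values. Of 87 tested small nucleolar RNA genes 42 rose and 3 fell, against 25.9% and 28.9% over all tested genes (median 0.84). Snord52, a box C/D RNA, had 71.8, 72.4 and 61.2 TPM in KOiMOS and 4.54, 0.366 and 1.70 TPM in WTiMOS T2 libraries (log2 difference 4.66), and 78.1 TPM in KOiMOS and 2.56 TPM in WTiMOS T1 cells. Of 21 nucleolar and Myc target genes 7 rose (33.3%) and 8 fell (38.1%). Fbl, the rRNA methyltransferase, fell to 209.8, 209 and 196 TPM in KOiMOS, against 604, 631 and 608 TPM in WTiMOS. Srm, spermidine synthase, fell to 94.5, 118 and 85.1 TPM in KOiMOS, against 470.3, 492 and 463 TPM in WTiMOS.

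Of 13 heat shock genes 9 rose (69.2%) and 3 fell (23.1%), against 25.9% and 28.9% over all tested genes. Their median log2 difference was 0.49. Hspa1a, an inducible chaperone, had 24, 26.5 and 19.3 TPM in KOiMOS and 0.537, 0 and 1.62 TPM in WTiMOS T2 libraries (log2 difference 3.92, adjusted p = 1.92e-05), and 7.11 TPM in KOiMOS and 2.73 TPM in WTiMOS T1 cells. Hspa1b is its near copy, so their split is uncertain, and it rose by 2.61. Hsp90ab1, a constitutive chaperone, had 3166, 3323 and 2959.8 TPM in KOiMOS and 1161, 1219.7 and 1286 TPM in WTiMOS. Dnajb1, Dnaja1 and Hspa5 were the members that fell.

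The list of MPP3 identity and gating genes was split, with 4 of 11 rising (36.4%) and 6 falling (54.5%), at a median of -0.24. Over all tested genes 25.9% rose and 28.9% fell. In T1 cells 9 members rose and 1 fell, against 35.6% and 25.8% over all tested genes. Kit, the receptor of stem cell factor and a gating marker, had 365, 418 and 373 TPM in KOiMOS and 144, 170.1 and 153 TPM in WTiMOS T2 libraries, a log2 difference of 1.30 (adjusted p = 4.47e-06). Flt3, the receptor that marks lymphoid-primed progenitors, had 62.5, 72.6 and 71.6 TPM in KOiMOS and 133, 125 and 181 TPM in WTiMOS T2 libraries (log2 difference -1.06). In T1 cells Flt3 went the other way, 116 TPM in KOiMOS and 87.6 TPM in WTiMOS, and the difference of differences was -1.48 (adjusted p = 0.000152). Cd48 fell by 0.49 in T2 cells and was higher by 0.50 in T1 cells. Ptprc, which encodes CD45, had 155, 170.3 and 149 TPM in KOiMOS and 55.8, 73.5 and 48 TPM in WTiMOS.

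Of 28 stem cell genes 9 rose (32.1%) and 10 fell (35.7%) in T2 cells, against 25.9% and 28.9% over all tested genes. Their median was 0.23, and 0.14 without WTiMOS T2 replicate 1. In T1 cells 20 rose and 1 fell, against 35.6% and 25.8% over all tested genes. Txnip, a thioredoxin-binding protein, had 265, 311 and 275 TPM in KOiMOS and 114, 148 and 128 TPM in WTiMOS T2 libraries. Gfi1b, a repressor needed for erythroid and megakaryocyte development, had 63.5, 65.1 and 65.2 TPM in KOiMOS and 42.9, 37.7 and 37.8 TPM in WTiMOS, with means of 36.6 TPM in KOiMOS and 34.3 TPM in WTiMOS T1 cells. Nkx2-3 was the member with the largest fall, at 0.598, 0.225 and 0.376 TPM in KOiMOS and 23.3, 27.3 and 31.6 TPM in WTiMOS. The fallen members also included the transcription factors Hlf, Meis1, Hoxa7, Hoxa9 and Hoxa10, and the risen members Mecom, a zinc finger factor of stem cells, Mllt3, Mycn, Tek, Procr and Ndn.

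Granulocyte, monocyte and cell cycle genes had other differences in T2 cells than in T1 cells. Of 20 granulocyte priming genes 5 rose and 3 fell in T2 cells, against 25.9% and 28.9% over all tested genes. In T1 cells 4 rose and 14 fell, against 35.6% and 25.8%. The difference of differences was higher for 12 and lower for 3, against 7.77% and 13.8%. The T2 rises and the lower differences of differences were near the shares over all tested genes. Mpo, myeloperoxidase, had 5125, 5167 and 5081 TPM in KOiMOS and 4459, 4379 and 3876 TPM in WTiMOS T2 libraries (log2 difference 0.28). Csf3r, the receptor of G-CSF, had 87.3, 95.02 and 83.1 TPM in KOiMOS and 143, 164 and 178 TPM in WTiMOS T2 libraries, while in T1 cells it averaged 146 TPM in KOiMOS and 116 TPM in WTiMOS. Cebpa, a master factor of granulocytes, fell to 1.58, 1.41 and 1.28 TPM in KOiMOS, against 4.77, 7.86 and 5.45 TPM in WTiMOS. Without WTiMOS T2 replicate 3, 6 granulocyte priming genes fell.

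Of 13 monocyte priming genes 2 rose (15.4%) and 5 fell (38.5%) in T2 cells, against 25.9% and 28.9% over all tested genes. In T1 cells 1 rose and 12 fell, against 35.6% and 25.8% over all tested genes. In the difference of differences 11 were higher, against 7.77%. Ms4a6c had 31.6, 31.4 and 27.5 TPM in KOiMOS and 79.2, 77.03 and 48.6 TPM in WTiMOS T2 libraries, and 56.2 TPM in KOiMOS and 365 TPM in WTiMOS T1 cells. Cx3cr1, the fractalkine receptor, rose to 6.15, 6.47 and 6.39 TPM in KOiMOS T2 libraries, against 1.35, 0 and 2.15 TPM in WTiMOS, and was the other way round in T1 cells, with 0.978 TPM in KOiMOS and 9.12 TPM in WTiMOS. Without KOiMOS T2 replicate 1 or replicate 3, 3 monocyte priming genes fell.

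Of 34 cell cycle genes 7 rose (20.6%) and 10 fell (29.4%) in T2 cells, near the 25.9% and 28.9% over all tested genes. In T1 cells 2 rose and 29 fell, against 35.6% and 25.8% over all tested genes. The difference of differences was higher for 27 and lower for 0, against 7.77% and 13.8%. Top2a, a topoisomerase of dividing cells, had 191, 219 and 201 TPM in KOiMOS and 91.8, 96.05 and 71.1 TPM in WTiMOS T2 libraries, with 117 TPM in KOiMOS and 114 TPM in WTiMOS T1 cells. Pcna, the sliding clamp of replication, had 376, 382 and 372 TPM in KOiMOS and 586, 597 and 549.8 TPM in WTiMOS T2 libraries. Nusap1, a spindle protein, fell to 99.1, 104 and 110.4 TPM in KOiMOS T2 libraries, against 169, 185 and 181 TPM in WTiMOS. Of 12 cell cycle inhibitors and cyclin D genes 3 rose and 4 fell. Cdkn1b, which encodes p27, rose to 55.6, 49.5 and 56.5 TPM in KOiMOS, against 13.4, 15.2 and 9.19 TPM in WTiMOS. Cdkn1a, which encodes p21, fell to 62.4, 63.9 and 58.2 TPM in KOiMOS, against 115, 106 and 112 TPM in WTiMOS.

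**Figure D5:**
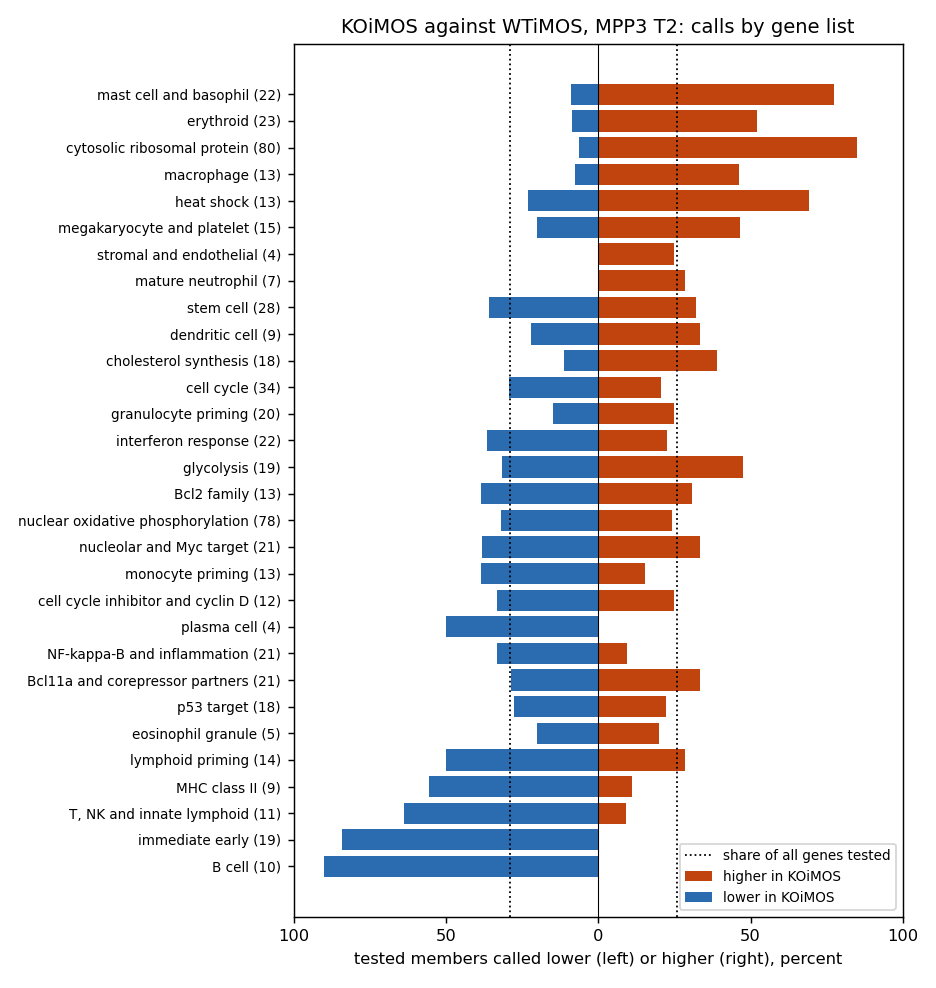
Percentage of tested members called higher (right) and lower (left) in KOiMOS against WTiMOS T2 cells for 30 gene lists, with the number tested beside each name and dotted lines at the percentages over all tested genes (25.9% higher, 28.9% lower). Ribosomal protein and mast cell and basophil genes reach the highest shares called higher (85.0% and 77.3%), and B cell and immediate early genes the highest called lower (90.0% and 84.2%).

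Of 15 megakaryocyte and platelet genes 7 rose and 3 fell (median 0.45). Itgb3, an integrin of platelets, had 6.999, 7.29 and 6.88 TPM in KOiMOS and 2.84, 2.56 and 2.66 TPM in WTiMOS T2 libraries. Gp5, a platelet receptor subunit, fell to 0.114, 0 and 0 TPM in KOiMOS, against 12.2, 7.34 and 12.7 TPM in WTiMOS. The list summed to 813 to 876 TPM in KOiMOS and 806 to 906 TPM in WTiMOS, ranges that overlap. Of 13 macrophage genes 6 rose (46.2%) and 1 fell (7.69%), against the same 25.9% and 28.9%. The count of macrophage rises was 3 without KOiMOS T2 replicate 2 and 3 without replicate 3. Hmox1, heme oxygenase, had 80.6, 89.2 and 87.1 TPM in KOiMOS and 14.3, 28.8 and 31.5 TPM in WTiMOS. C1qa and C1qc encode chains of complement C1q and moved in opposite directions. C1qa rose to 36.6, 38.6 and 47.8 TPM in KOiMOS, against 16.9, 26.4 and 8.89 TPM in WTiMOS. C1qc fell to 16.7, 14.6 and 15.7 TPM in KOiMOS, against 32.9, 39.5 and 28.5 TPM in WTiMOS. The list summed to 308 to 341 TPM in KOiMOS and 207 to 248 TPM in WTiMOS.

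Markers of mature granulocytes were unequal among WTiMOS T2 libraries. Prg2, an eosinophil granule protein, had 11.3, 0.476 and 14.1 TPM in KOiMOS and 3.49, 172 and 362 TPM in WTiMOS, and the eosinophil list summed to 23.5 to 44.4 TPM in KOiMOS and 30.5 to 472 TPM in WTiMOS. Ngp, a neutrophil granule protein, had 1.84, 1.19 and 1.82 TPM in KOiMOS and 12.9, 345 and 6.60 TPM in WTiMOS, and the neutrophil list summed to 196 to 209 TPM in KOiMOS and 162 to 672 TPM in WTiMOS. WTiMOS replicate 2 was the high library for Ngp, and replicates 2 and 3 for Prg2. Neither gene was called, but Prg2 was called without WTiMOS replicate 1 (adjusted p = 0.0257), and Ngp without replicate 2 (adjusted p = 0.00131) or replicate 3 (adjusted p = 0.0390). The counts of the small lists that follow stand beside 25.9% higher and 28.9% lower over all tested genes. Of 5 eosinophil genes 1 rose and 1 fell, with 3 falling without WTiMOS T2 replicate 1 and 0 without KOiMOS T2 replicate 3. Of 7 neutrophil genes 2 rose and 0 fell. Without WTiMOS T2 replicate 2, 5 neutrophil genes rose and 1 fell, without WTiMOS replicate 3, 1 fell, and without KOiMOS replicate 2, 1 rose. Of 9 dendritic cell genes 3 rose and 2 fell, with 1 falling without KOiMOS T2 replicate 1, 2 or 3 or WTiMOS T2 replicate 2. Id2, an inhibitor of E proteins, had 53.1, 55.98 and 52.6 TPM in KOiMOS and 16.7, 20.4 and 21.2 TPM in WTiMOS T2 libraries, and 7.89 TPM in KOiMOS and 42.1 TPM in WTiMOS T1 cells. Ly6d was listed at 0 in every KOiMOS T2 library and had 12.2, 11.2 and 9.16 TPM in WTiMOS. Siglech was listed at 0 in all 12 T2 and T1 libraries. Of 4 plasma cell genes 2 fell and 0 rose, with 1 rising without WTiMOS T2 replicate 2. Of 4 stromal and endothelial genes 1, Col4a1, rose, and 2 without WTiMOS T2 replicate 3. The part of any of these cell types in the other differences was not tested.

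Of 21 NF-kappa-B and inflammation genes 2 rose (9.52%) and 7 fell (33.3%), against 25.9% and 28.9% over all tested genes. Their median log2 difference was -0.16, and it was -0.30 without WTiMOS T2 replicate 1, -0.077 without WTiMOS T2 replicate 3 and -0.10 without KOiMOS T2 replicate 1. Ccl3, a chemokine, had 9.65, 8.09 and 5.20 TPM in KOiMOS and 61.6, 57.7 and 50.7 TPM in WTiMOS T2 libraries (log2 difference -2.77, adjusted p = 8.84e-06). Ccl4 had 29.2, 22.6 and 30.1 TPM in KOiMOS and 131, 108 and 90.2 TPM in WTiMOS. Both fell by more in T2 than in T1 cells, with differences of differences of -1.81 and -1.51. Without WTiMOS T2 replicate 3, 5 members rose. Of 22 interferon response genes 5 rose (22.7%) and 8 fell (36.4%). Without KOiMOS T2 replicate 1, 2 rose and 4 fell, and without KOiMOS T2 replicate 3, 2 rose. Oasl2 had 39.5, 39.3 and 34.7 TPM in KOiMOS and 62.5, 82.2 and 86.1 TPM in WTiMOS T2 libraries, and 67.4 TPM in KOiMOS and 67.9 TPM in WTiMOS T1 cells.

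Of 18 p53 target genes 4 rose (22.2%) and 5 fell (27.8%), near the 25.9% and 28.9% over all tested genes. Without KOiMOS T2 replicate 2, 2 rose, and without WTiMOS T2 replicate 1, 8 fell. Of 13 Bcl2 family genes 4 rose (30.8%) and 5 fell (38.5%). Pmaip1, which encodes the death protein NOXA and belongs to both lists, had 2.66, 3.38 and 2.80 TPM in KOiMOS and 13.4, 15.3 and 17.05 TPM in WTiMOS T2 libraries, and 1.42 TPM in KOiMOS and 83.7 TPM in WTiMOS T1 cells. Mcl1, a survival factor, fell to 10.7, 11.3 and 10.1 TPM in KOiMOS, against 38.7, 34.2 and 28.9 TPM in WTiMOS. Bcl2l11, which encodes the death protein BIM, rose to 14.5, 16.7 and 18.05 TPM in KOiMOS, against 2.70, 5.46 and 4.76 TPM in WTiMOS. Sesn1 fell to 63.3, 66.2 and 62.2 TPM in KOiMOS T2 libraries, against 127, 126 and 114 TPM in WTiMOS, and was not called in T1 cells.

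A list of 21 tested genes held Bcl11a itself and members of the complexes known to work with BCL11A. Of these, 7 rose (33.3%) and 6 fell (28.6%), close to the 25.9% and 28.9% over all tested genes, and Bcl11a was in neither count. The list's median log2 difference was -0.20, which is the value of Bcl11a itself, and 0.0064 without WTiMOS T2 replicate 3. Mbd3, a subunit of the NuRD complex, had 47.03, 48.9 and 48.7 TPM in KOiMOS and 97.3, 93.5 and 107 TPM in WTiMOS T2 libraries. Hdac1, a histone deacetylase of NuRD, had 291, 311 and 305 TPM in KOiMOS and 451, 473 and 525 TPM in WTiMOS. Dnmt1, the maintenance DNA methyltransferase, had 136, 138 and 135 TPM in KOiMOS and 38.2, 53.7 and 59.8 TPM in WTiMOS. All 3 differed the same way in T1 cells.

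Of 18 cholesterol synthesis genes 7 rose (38.9%) and 2 fell (11.1%), against 25.9% and 28.9% over all tested genes. Sqle, squalene epoxidase, had 14.5, 18.2 and 14.7 TPM in KOiMOS and 41.5, 45.7 and 42.1 TPM in WTiMOS T2 libraries, and its T1 difference was not called. Mvk, mevalonate kinase, had 25.7, 27.02 and 27.6 TPM in KOiMOS and 6.58, 5.84 and 10.1 TPM in WTiMOS. Of 19 glycolysis genes 9 rose (47.4%) and 6 fell (31.6%). Gapdh, often used as a reference, had 2306, 2478 and 2207 TPM in KOiMOS and 738, 866 and 825 TPM in WTiMOS, and Hk2, a hexokinase, had 27.02, 29.4 and 23.1 TPM in KOiMOS and 5.60, 4.40 and 6.13 TPM in WTiMOS. Of 78 nuclear genes of oxidative phosphorylation 19 rose (24.4%) and 25 fell (32.1%), near the 25.9% and 28.9% over all tested genes, with 16 falling after median-ratio rescaling. Atp5g2, an ATP synthase subunit, rose to 698, 611 and 639.7 TPM in KOiMOS, against 325, 288 and 297 TPM in WTiMOS. Ndufb8, a complex I subunit, fell to 448, 421 and 419.6 TPM in KOiMOS, against 712, 680.0 and 629 TPM in WTiMOS.

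The genes with the smallest p-values in the difference of differences were Pld4, Cpa3, Paqr5, Fcer1g, Dmkn and Tpm4. Paqr5 (chr9:61953481-62026856, minus strand), a membrane progestin receptor, had 1.57, 1.96 and 1.59 TPM in KOiMOS and 27.8, 38.1 and 33.1 TPM in WTiMOS T2 libraries, a log2 difference of -3.64 (SE 0.17, adjusted p = 9.16e-07). In T1 cells it averaged 30.2 TPM in KOiMOS and 18.04 TPM in WTiMOS, and the difference of differences was -4.35. The KOiMOS T2 libraries were below all libraries of the 6 other groups. Pld4 had 6.72, 8.58 and 8.22 TPM in KOiMOS and 8.84, 11.3 and 8.44 TPM in WTiMOS T2 libraries, which was not called, but 5.86 TPM in KOiMOS and 277 TPM in WTiMOS T1 cells. Dmkn was also not called in T2 cells and averaged 3.60 TPM in KOiMOS and 105 TPM in WTiMOS T1 cells. For these 2 genes the difference of differences was 5.09 and 4.68, and the WTiMOS T1 libraries were the high ones. Tpm4, a tropomyosin, rose in T2 cells, at 76.03, 87.3 and 81.97 TPM in KOiMOS and 41.2, 31.5 and 42.7 TPM in WTiMOS, and fell in T1 cells, at 34.3 TPM in KOiMOS and 132 TPM in WTiMOS.

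Called genes differed in transcript length. Genes higher in KOiMOS had a median longest transcript of 3893 bases and lower genes 2772.5 bases, against 3158 bases over all tested genes with an entry. Over 5 equal classes of genes, shortest to longest, the median log2 difference was -0.046, -0.20, -0.16, 0.060 and 0.31. GC content hardly differed, at a median of 49.05% for higher and 49.75% for lower genes. The part of transcript length in the calls was not tested. With trends on length and GC content removed, 6482 genes were called, 5783 of them called the same way as in the main test.

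Sex-linked genes were read by library. Xist, expressed from the inactive X chromosome, had 29.1, 29.2 and 28.3 TPM in KOiMOS and 37.1, 40.5 and 33.4 TPM in WTiMOS T2 libraries. Its fall of 0.34 on the log2 scale was called with an adjusted p of 0.0275, and the call was lost without KOiMOS replicate 1, 2 or 3 and without WTiMOS replicate 2, with adjusted p of 0.0910, 0.0774, 0.101 and 0.0627. The Y-linked gene Uty rose to 5.84, 6.94 and 5.05 TPM in KOiMOS, against 0.644, 2.16 and 1.64 TPM in WTiMOS. Kdm5d, also Y-linked, rose to 3.67, 5.24 and 2.59 TPM in KOiMOS, against 0.656, 2.09 and 0.483 TPM in WTiMOS. The call of Kdm5d was lost without KOiMOS replicate 2 (adjusted p = 0.0555). Ddx3y had 12.9, 14.4 and 14.96 TPM in KOiMOS and 11.8, 8.21 and 12.6 TPM in WTiMOS, and Eif2s3y had 32.9, 34.6 and 32.7 TPM in KOiMOS and 20.7, 25.9 and 43.8 TPM in WTiMOS, and neither was called. All 6 libraries held both Xist and Y-linked RNA.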

How the data were processed

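TPM per gene were deposited by the authors, in 5 tables of 30 libraries in 10 groups, each library summing to 1e+06 over 24421 genes, so depth and counting intervals are unknown. HISAT2, StringTie, featureCounts, DESeq2 and mm10 are named in the submitters' processing notes, with no version or role. Per the labels' protocols cDNA was made with a kit for low input. Labels and column names assigned all columns, and 0 were left unmapped.

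TPM were taken as log2(TPM + 1). The genes that reached 1 TPM in 3 or more of the 6 T2 libraries were fitted with limma 3.58.1 in R 4.3.3 (unweighted, variance trend, robust moderation), with the Benjamini-Hochberg adjustment over 11955 genes and calls at 0.05. T1 differences and differences of differences came from a fit of 12 libraries. Scripts were tested on simulated data. Tables were summarised in Python 3.11.15 with pandas 2.3.3. Gene positions are from GENCODE vM21, which had 95.7% of the symbols, and promoters from RefSeq.

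The groups, gene lists and tests were chosen with earlier results of these data known. Named genes were Bcl11a, the 15 largest called rises and the 15 largest falls whose 3 libraries against 3 did not overlap, averaging 5 TPM or more where higher, as many as 4 genes per list in order of p, the 6 smallest p of the difference of differences, and sex-linked genes. Predicted genes and pseudogenes were left out, and some genes that the rule names are not reported here. Cd200r3 and the genes listed only as members that rose or fell were named outside this rule, after their values were seen. Alternatives were the pseudocount, the filter, median-ratio rescaling, the libraries fitted, the model of spread, a replicate block and each library left out. Removal of length and GC trends was added after seeing the data. List counts and medians are descriptions with no set test.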

Additional observations from a re-analysis of the deposited data

Results flagged for a closer look

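The difference between KOiMOS and WTiMOS in T2 cells was unlike that in T1 cells for 2581 of 11955 genes, by a limma test of the difference of differences. Among the genes named in the text these are given as log2 values of the T2 difference minus the T1 difference, so a positive value means a larger KOiMOS minus WTiMOS difference in T2 cells. The median over all tested genes was -0.14, and 0.0088 after median-ratio rescaling.

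The largest positive values were Pld4 5.09, Dmkn 4.68, Fcer1a 4.51, Cx3cr1 4.25, Sox18 4.06, Id2 3.68, Mrgprb2 3.67, Tpsg1 3.58, Mcpt4 3.53, Hbb-b1 3.50, Pmaip1 3.10 and Il1rl1 3.05. Next came Tpm4 2.99, Tpsab1 2.91, Cpa3 2.77, Hspa1a 2.75, Hbb-b2 2.33, Ccr2 2.31, Fcer1g 1.97, Hbb-bt 1.83, Hspa1b 1.83, Blnk 1.82, Hdc 1.76 and Cyp11a1 1.72. Smaller positive values were Dntt 1.72, Ms4a6c 1.56, Vpreb1 1.40, Lef1 1.30, Ly6d 1.29, Top2a 1.19, Zbtb16 1.18, Nusap1 1.17, Trpc6 0.98, Bcl2l11 0.92, Mvk 0.77 and Tfrc 0.73. The smallest positive values were Gapdh 0.67, Gfi1b 0.60, Rps12 0.58, Xbp1 0.57, Rpl10 0.56, Hsp90aa1 0.44, Cd79b 0.37, Atp5h 0.35, Rpl7a 0.32 and Fbl 0.28.

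The largest negative values were Paqr5 -4.35, Emcn -1.93, Ccl3 -1.81, Sqle -1.65, Ccl4 -1.51, Flt3 -1.48, Nkx2-3 -1.29, Siglecf -1.28, Padi4 -1.28, Slc2a3 -1.20, Csf3r -1.19 and Gp5 -1.12. Next came Sesn1 -1.07, Tespa1 -1.06, Nkg7 -1.04, Cd48 -0.99, Oasl2 -0.99, Bcl11a -0.82, Srebf2 -0.73, H2-DMa -0.66, Nfkb1 -0.60 and Pfkl -0.58. Smaller negative values were Nop56 -0.45, Nfe2 -0.45, Cdkn1a -0.44, Ifi27 -0.32 and Junb -0.27.

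The calls for Bcl2l11, Cd79b, Fbl, Gp5, Hbb-b1, Hbb-bt, Junb, Lef1, Ly6d and Mvk were lost without at least 1 library. Those for Fcer1a, Mcpt4 and Tpsab1 were lost with a pseudocount of 0.1, and those for Cdkn1a and Ifi27 with median-ratio rescaling.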

How the results depend on the processing

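The T2 comparison called 6550 genes, and 5908 to 7234 under the other settings that kept all 6 libraries. Leaving out 1 library gave 5179 to 7041 calls, 2317 to 3262 higher and 2752 to 3834 lower. Median-ratio rescaling gave 3511 higher and 3081 lower genes, against 3100 and 3450. The difference of differences called 2581 genes, and 1844 to 3479 with 1 library left out, 729 to 1121 higher and 1085 to 2358 lower. Median-ratio rescaling gave 1402 higher and 917 lower genes there, against 929 and 1652, and the cause was not tested. Same-numbered KOiMOS and WTiMOS T2 libraries did not vary together (correlations of deviations 0.0199, 0.0190 and -0.0129), and some were closer to another number. Whether same-numbered T1 and T2 libraries pair within a genotype was not tested, and the difference of differences treats all 12 libraries as independent. With a replicate block shared by both genotypes, 6507 genes were called in T2 cells and 2513 in the difference of differences. With a pseudocount of 0.1 the difference of differences turned to -1.29 for Ly6d and to -0.14 for Lef1. Over all settings, T2 values of named genes kept their direction and side of the threshold 2438 times, lost the call 19 times, gained it 22 times and moved 5 times. Their differences of differences did so 2584 times, lost the call 89 times, gained it 48 times, moved 73 times and turned 2 times. The unknown depth limits what can be said of genes near 0.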
